A study of Danio rerio with 9 samples.

Results

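Matrix metalloproteases (the mmp genes), membrane-anchored ADAM proteases, secreted ADAMTS proteases and their TIMP inhibitors were followed in whole zebrafish embryos (Danio rerio) with and without coloboma, a gap in the eye left by an open choroid fissure. The genes were taken by name alone: every row whose lower-case symbol begins with mmp, adam or timp and a digit, or with adamts. This gave 47 of 22337 genes, made up of 17 mmp, 15 adam, 13 adamts or adamts-like and 2 timp genes. A further 15 rows of the same families carry their symbol in capitals and fall outside that rule; they are described separately. RNA-seq counts came from 9 single embryos collected about 25 hours after fertilization and kept at 29 °C. Each was an offspring of parents with the genotype zic2aGBT133/+; zic2bUW1127/+, that is, with one altered copy of each zic2 gene. The 4 normal embryos are numbered 3, 4, 6 and 7, and the 5 coloboma embryos 3, 4, 5, 6 and 7. The deposited column names tag the normal embryos WT and the others COL. The tag is not explained: it could describe the eye or the alleles, and carriers among the normal embryos cannot be told apart.

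Metalloproteases of these families cut extracellular matrix and cell-surface proteins with a zinc ion in the active site. Most are made as inactive precursors, and TIMPs block the active enzyme by binding to it. Soluble MMPs cut collagens and basement membranes, membrane-type MMPs act at the cell surface and can activate MMP2, ADAMs release the outer parts of membrane proteins such as Notch and growth factors, and ADAMTS enzymes trim proteoglycans and procollagens. Closure of the choroid fissure involves dissolving the basement membrane between its margins, the kind of step in which matrix proteases are studied. All embryos were collected about 25 hours after fertilization, and whether this step had begun by then was not measured. The levels below therefore do not bear on proteases at a later stage of closure. In RNA of a whole embryo the eye is a small share, RNA levels do not measure enzyme activity, and fewer cells of a type cannot be told apart from less RNA per cell.

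Total counts ran from 20461180 in coloboma embryo 5 to 59233104 in coloboma embryo 6. Over all 21293 genes tested, 17 were higher and 27 lower in coloboma embryos (edgeR quasi-likelihood test, Benjamini-Hochberg adjusted p under 0.05). Coloboma embryo 3 stood apart in 8 lens markers, whose summed level was 35.3 CPM (counts scaled to library size with TMM factors) against 609 to 1508 CPM in the other 8 embryos. Fast muscle markers summed to between 17560 and 32192 CPM in normal and between 31655 and 48509 CPM in coloboma embryos, and myhz1.2 was the one gene of these 13 past the threshold. The altered genes themselves measured 47.8 and 51.7 CPM (zic2a) and 48.7 and 47.7 CPM (zic2b) in normal and coloboma embryos. Neither passed (edgeR adjusted p = 0.733 and 0.908), and whole-gene counts do not tell altered from intact transcripts.

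No protease or inhibitor gene passed the test for a difference between the groups. Of the 47 genes, 46 were abundant enough to be tested and 0 passed the adjusted p of 0.05, against 0.207% of all genes tested. Their adjusted p-values ran from 0.349 to 0.997 (edgeR). At an unadjusted p under 0.05 there was 1 gene, adam22, or 2.17% of the 46, against 11.7% of all genes. DESeq2 also called 0 of the 46, against 2.86% of the genes to which it gave an adjusted p, and 3 had an unadjusted p under 0.05 there (6.52%, against 13.3% of all genes). Limma-voom called 0 of the 46 and 48 of all genes, and 2 had an unadjusted p under 0.05 (4.35%, against 12.3%). The CPM of normal and coloboma embryos overlapped for every one of the 46, whereas the groups did not overlap for 4.43% of all genes. On the length-scaled TPM scale the groups were apart for 1 of the 46, adam19a, against 4.8% of all genes. That scale set coloboma embryos lower in general, with a median log2 difference of -0.079 over all genes tested (TPM plus 0.1). In the edgeR fit on counts, log2 differences, coloboma minus normal, were above 0 for 21 and below 0 for 25 (45.7% above, against 50.1% of all genes). Their median was -0.0051 beside 0.00075 over all genes.

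For 35 of the 46 genes the 95% interval of the difference, taken gene by gene, lay within 1.5-fold in either direction, and for 43 within 2-fold. The 3 genes whose interval reached further were mmp13a, mmp11a and adamts13. The eye was not measured apart from the rest of the embryo, and no later stage was sampled.

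**Figure D1:**
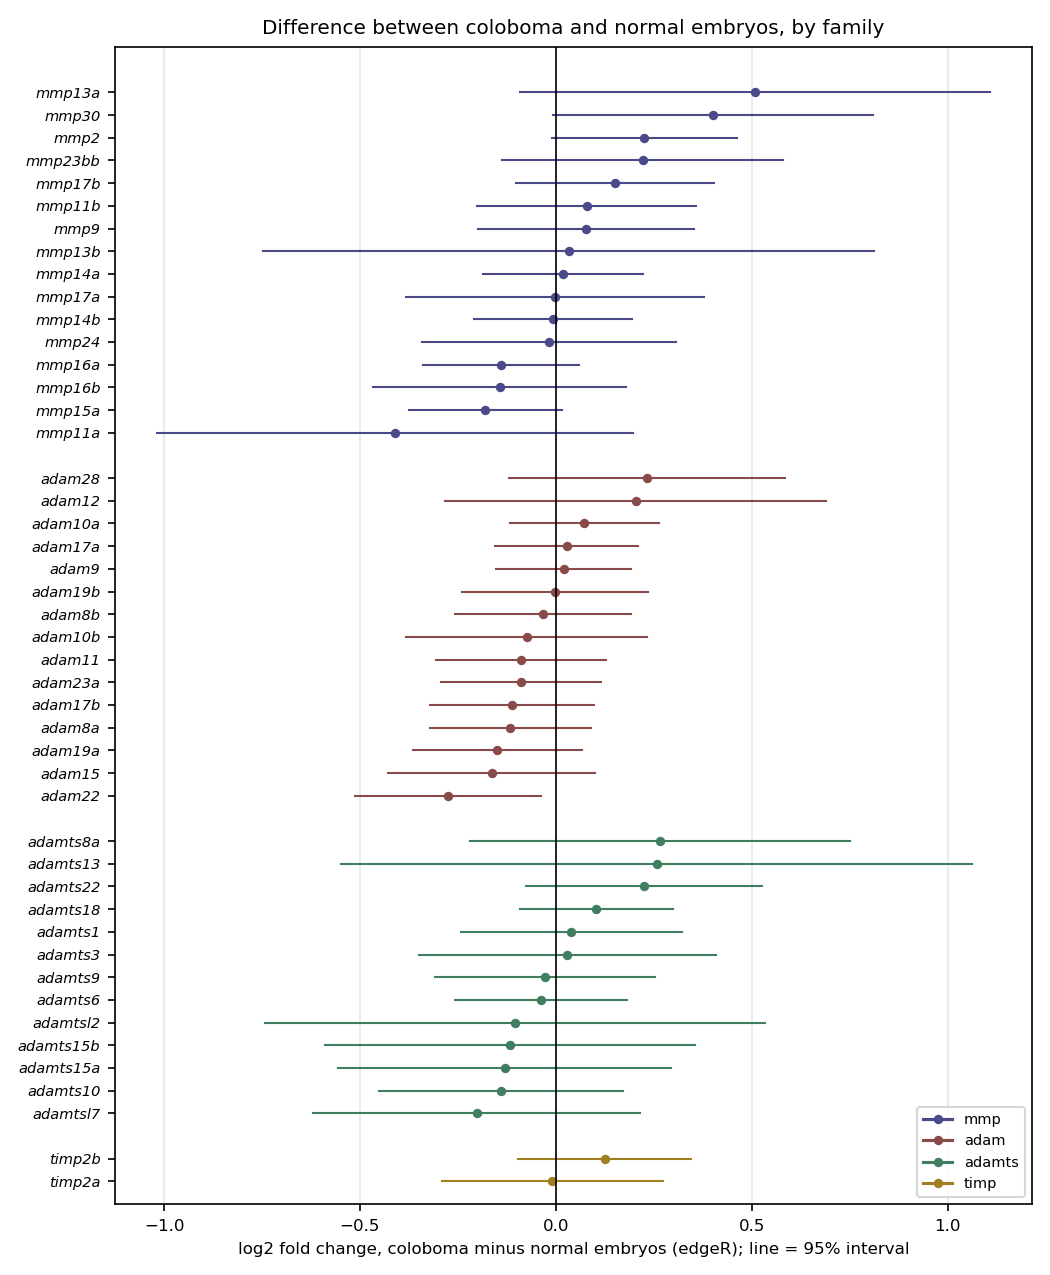
Log2 fold change of the 46 tested genes, coloboma minus normal embryos (x axis), by family, with points for the edgeR estimate and lines for the 95% interval. The estimates lie between -0.41 (mmp11a) and 0.51 (mmp13a), and every interval but that of adam22 crosses 0.

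Levels per transcript length (TPM) spread over more than 2 orders of magnitude, from 58.2 ± 6.44 TPM (SD, n = 9) for mmp2 to 0.173 ± 0.075 TPM (SD, n = 9) for mmp20a. At 10 TPM or more stood 12 genes, between 1 and 10 TPM 30 genes, and below 1 TPM 5 genes. The median of the 47 means was 4.81 TPM, against 6.55 TPM over all 22337 rows. Neighbours in this order were seldom separable. Of the 46 steps from one gene to the next, the ranges over the embryos were apart at 2, between adam10a (lowest 33.8 TPM) and adam19b (highest 28.0 TPM), and between adamtsl2 (lowest 0.43 TPM) and adamts13 (highest 0.42 TPM).

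**Figure D2:**
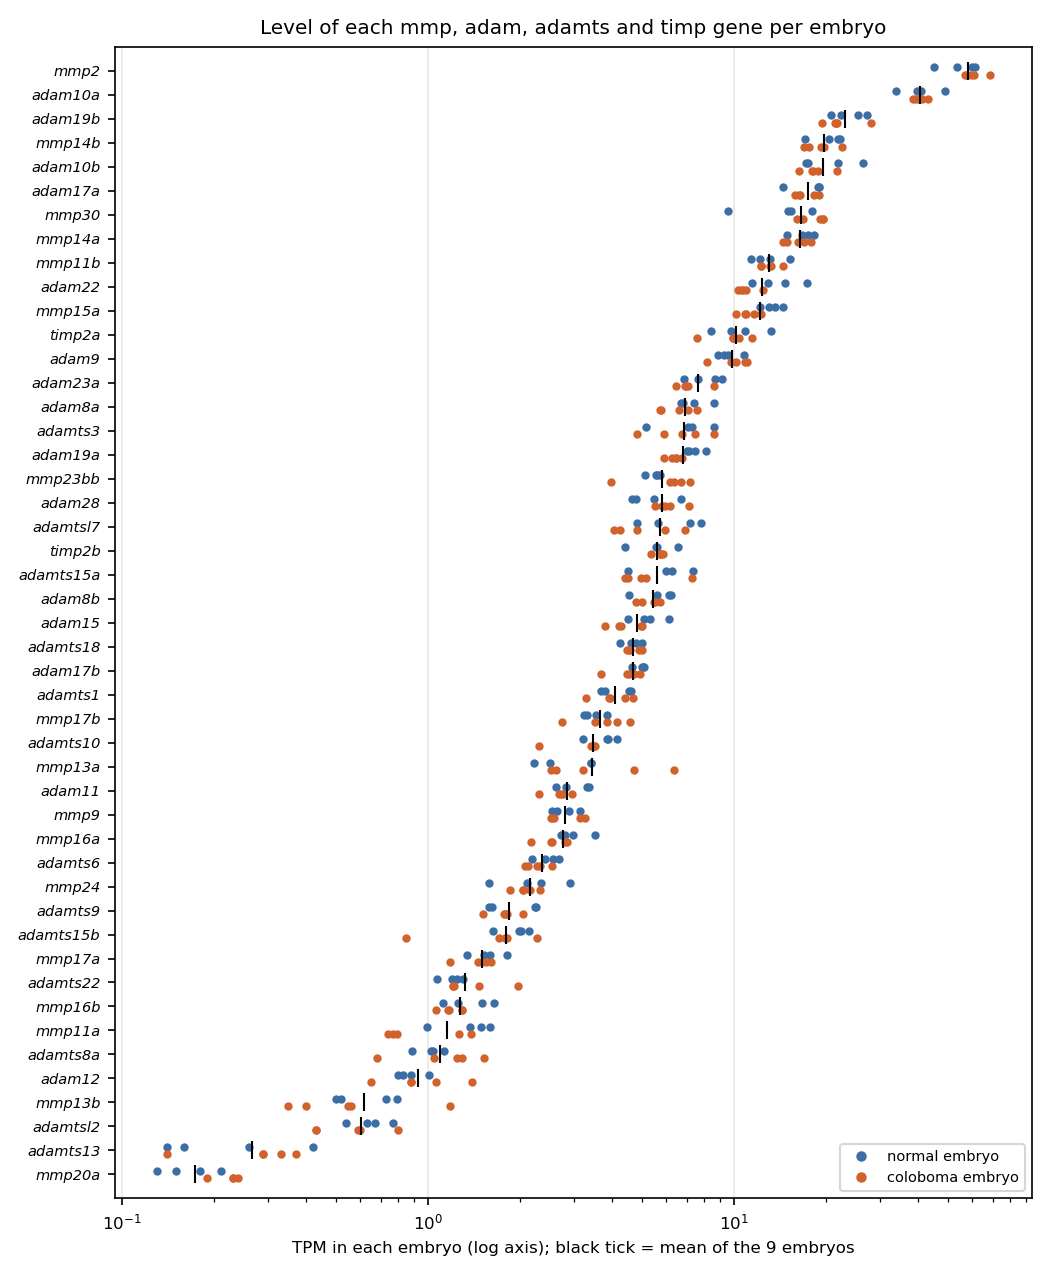
TPM of each of the 47 genes in each embryo on a log axis, sorted by the mean of 9 embryos (black tick), with normal embryos in blue and coloboma embryos in orange. The 1 embryo in which mmp20a is at 0 has no point. The order runs from mmp2 at 58.2 to mmp20a at 0.173 TPM, and the colours overlap within each of the 46 genes other than adam19a.

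Among the soluble MMPs, mmp2, a gelatinase that cuts basement membrane collagen, was the most abundant and held 36.1% of the summed mean TPM of the 17 mmp genes. In normal embryos 3, 4, 6 and 7 its level was 96.9, 129, 99.8 and 112 CPM, and in coloboma embryos 3, 4, 5, 6 and 7 it was 129, 125, 149, 123 and 115 CPM. Coloboma embryo 5, the shallowest library, was the highest of all, and normal embryo 4 stood above 4 of the 5 coloboma embryos. The log2 difference was 0.23 ± 0.11 (SE; edgeR adjusted p = 0.447), and 0.17 without coloboma embryo 5. The other gelatinase, mmp9, known from macrophages and neutrophils, was at 2.81 ± 0.298 TPM (SD, n = 9). The 4 normal embryos averaged 5.14 ± 0.634 CPM and the 5 coloboma embryos 5.41 ± 0.538 CPM (SD). Cranial crest mesenchyme, a connective tissue precursor of the kind in which mmp2 is active, was followed by 9 markers, all found and none at 0. These summed to 233 to 261 CPM in normal and 197 to 216 CPM in coloboma embryos, with all 9 log2 values below 0 and 0 past the threshold; their part in the mmp2 level was not tested.

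The collagenase mmp13a, which cuts fibrillar collagens, varied most among the coloboma embryos of any gene above 1 TPM. Its level was 2.74, 3.61, 3.26 and 2.13 CPM in normal embryos 3, 4, 6 and 7, and 3.11, 2.64, 3.40, 4.94 and 6.62 CPM in coloboma embryos 3, 4, 5, 6 and 7. Coloboma embryos 6 and 7 lay above every normal embryo, while the other 3 lay within the normal range. The log2 difference was 0.51 ± 0.27 (SE; edgeR adjusted p = 0.511), and 0.27 without coloboma embryo 7. Early myeloid markers, cells in which mmp9 and mmp13a can be active, summed to 106 to 154 CPM in normal and 107 to 164 CPM in coloboma embryos over the 11 of 12 markers found, none of them at 0. They were at 107, 143, 163, 154 and 164 CPM in coloboma embryos 3 to 7. In normal embryos 3, 4, 6 and 7 they were at 144, 147, 106 and 154 CPM, and normal embryo 7 had the lowest mmp13a. Of the 11 markers 3 had a log2 value above 0, the median was -0.082 and 0 passed. Their part in the mmp13a level was not tested. Its paralog mmp13b was far scarcer (0.62 ± 0.252 TPM, SD, n = 9), with coloboma embryo 3 at 1.86 CPM and the other 8 embryos at 0.542 to 1.04 CPM. Its log2 difference of 0.033 became -0.37 without that embryo.

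The 8 membrane-type MMPs summed to 62.2 ± 4.20 TPM in the 4 normal and 57.5 ± 4.05 TPM in the 5 coloboma embryos (SD). The TPM scale set coloboma embryos lower in general, as given above. Of the 8 log2 values, which rest on counts, 2 were above and 6 below 0. The membrane-type MMPs were led by mmp14b (19.7 ± 2.21 TPM, SD, n = 9) and mmp14a (16.4 ± 1.38 TPM, SD, n = 9), the zebrafish counterparts of the enzyme that activates MMP2. Both were at nearly equal levels in the groups. The 4 normal embryos averaged 60.2 ± 4.02 CPM for mmp14b and the 5 coloboma embryos 59.9 ± 6.33 CPM (SD). For mmp14a the averages were 38.9 ± 2.86 and 39.3 ± 4.03 CPM. Their 95% intervals for the fold, coloboma over normal, ran from 0.865 to 1.14 and from 0.878 to 1.17. The third by level, mmp15a (12.1 ± 1.41 TPM, SD, n = 9), was at 26.6, 27.4, 21.7 and 25.9 CPM in normal embryos 3, 4, 6 and 7 and at 23.3, 24.0, 21.0, 22.7 and 21.0 CPM in coloboma embryos 3 to 7. Normal embryo 6 fell among the coloboma embryos and the other normal embryos lay above all 5. The log2 difference was -0.18 ± 0.089 (SE; edgeR adjusted p = 0.471), and -0.26 without normal embryo 6. Of the rest, mmp16a (-0.14 ± 0.091), mmp16b, mmp17a, mmp17b (0.15 ± 0.12, log2, SE) and mmp24 stood between 1.28 and 3.64 TPM. The mmp17 genes encode lipid-anchored and the mmp16 and mmp24 genes membrane-spanning enzymes. The 8 genes and their sums leave out the rows in capitals, among them MMP15 (1 of 2). At 15.5 ± 1.54 TPM (SD, n = 9) that row had a higher mean than mmp15a. Its log2 difference was 0.15 ± 0.13 (SE; edgeR adjusted p = 0.694), opposite in sign to that of mmp15a.

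Of the remaining mmp genes, mmp30 showed the second-largest positive difference. It measured 17.7, 20.7, 9.77 and 15.8 CPM in normal embryos 3, 4, 6 and 7, and 24.1, 22.1, 22.7, 18.1 and 18.6 CPM in coloboma embryos 3 to 7. Normal embryo 6 was the lowest of the 9, and normal embryo 4 lay among the coloboma embryos. The difference was 0.40 ± 0.19 (log2, SE; edgeR adjusted p = 0.437) and came to 0.22 without normal embryo 6. In the gene table of assembly GRCz12tu, mmp30 and mmp13a both lie on chromosome 10. So does adamts6, whose log2 difference was -0.038 ± 0.10 (SE; edgeR adjusted p = 0.912). The gene mmp11b, for stromelysin-3, an MMP activated inside the cell by furin, was at 13.0 ± 1.21 TPM (SD, n = 9). Its paralog mmp11a was at 1.15 ± 0.334 TPM (SD, n = 9) and had the lowest log2 value of all 46 genes (-0.41 ± 0.28, SE; edgeR adjusted p = 0.615). The membrane-tethered mmp23bb stood at 5.83 ± 0.945 TPM (SD, n = 9). The gene mmp20a, whose human counterpart is an enamel protease, was not tested: it had 71 counts over the 9 embryos and 0 in coloboma embryo 5, which allows up to 3 counts, or 0.148 CPM, by counting error alone.

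**Figure D3:**
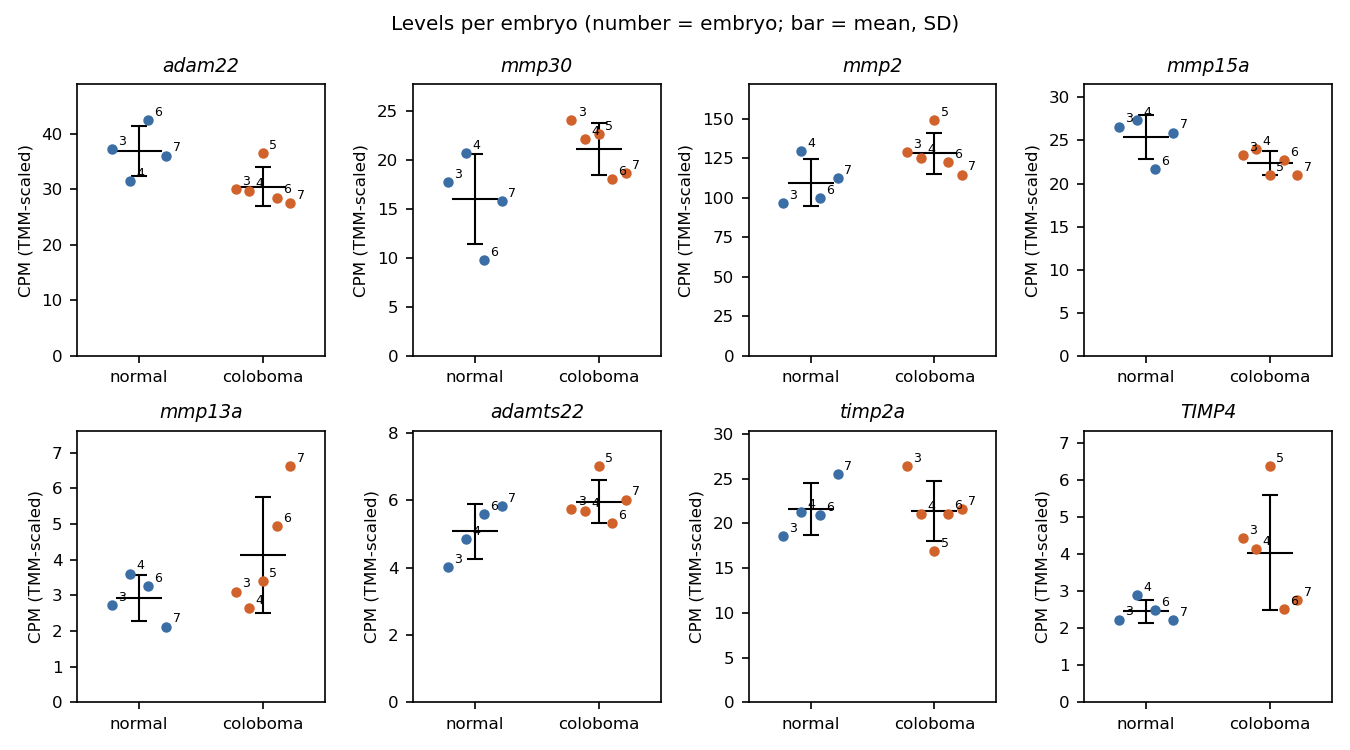
Normalised level (CPM, TMM-scaled) in each embryo for the 6 rule genes with the smallest p, for timp2a, and for TIMP4, one of the rows named in capitals. Points carry the embryo number, and bars give mean and SD of 4 normal and 5 coloboma embryos. In every panel at least 1 normal embryo lies within the range of the coloboma embryos.

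ADAM genes were dominated by sheddases, the ADAMs with an active site that cut other membrane proteins. The 12 genes of this kind summed to 146 ± 9.52 TPM (SD, n = 9), against 22.8 ± 3.27 TPM (SD, n = 9) for adam11, adam22 and adam23a, which lack a working active site and serve in adhesion and at synapses. The Notch and cadherin sheddase adam10a led with 40.6 ± 4.04 TPM (SD, n = 9), followed by adam19b (23.1 ± 3.02), adam10b (19.5, from 16.4 to 26.3) and adam17a (17.5 ± 1.68 TPM, SD, n = 9), the counterpart of the TNF and EGF-receptor ligand sheddase. This order depends on the gene lengths in the authors' annotation. In counts over the 9 embryos adam19b had 6264, against 9671 for adam10b and 26174 for adam17a. Levels of adam10a were 111, 128, 117 and 141 CPM in normal embryos 3, 4, 6 and 7 and 139, 136, 131, 121 and 127 CPM in coloboma embryos 3 to 7, with the highest and the lowest value both in normal embryos. The 95% interval of its log2 difference ran from -0.12 to 0.26. The fold, coloboma over normal, lay between 0.899 and 1.16 for adam17a and between 0.900 and 1.14 for adam9. These 3 had the smallest SE of the 46.

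The member with the smallest p was adam22, whose human counterpart is a receptor for the secreted synaptic protein LGI1. It measured 37.3, 31.6, 42.5 and 36.1 CPM in normal embryos 3, 4, 6 and 7, and 30.1, 29.7, 36.6, 28.5 and 27.6 CPM in coloboma embryos 3, 4, 5, 6 and 7. Only coloboma embryo 5 reached the normal range. The log2 difference was -0.28 ± 0.11 (SE; unadjusted p = 0.0263, edgeR adjusted p = 0.349), and -0.35 without coloboma embryo 5 (edgeR adjusted p = 0.110). That value was the lowest over 23 alternative settings, in which its adjusted p ran from 0.110 to 0.665. Leaving out coloboma embryo 5 raised the calls in general, to 235 of all genes from 44 (edgeR). In that fit 15.4% of all genes had an unadjusted p under 0.05, against 11.7% with all embryos. The TPM scale set coloboma embryos lower in general, as given above. On it the 3 ADAMs without an active site summed to 25.2 ± 3.72 TPM in the 4 normal and 20.9 ± 0.827 TPM in the 5 coloboma embryos (SD). All 3 log2 values, which rest on counts, were below 0. Of the others, adam23a stood at 7.60 ± 0.968 TPM (SD, n = 9) and adam11 at 2.84 ± 0.330 TPM (SD, n = 9). Neuron markers (6 of 7 found, none at 0) summed to 910 to 1187 CPM in normal and 753 to 968 CPM in coloboma embryos, with all 6 log2 values below 0 and 0 past the threshold; their part in the adam22 level was not tested.

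No other ADAM gene passed the threshold either. The meltrin genes adam19a (-0.15 ± 0.099, log2, SE) and adam12, and adam15 (-0.16 ± 0.12), adam8a (-0.12 ± 0.093), adam17b (-0.11 ± 0.095) and adam28 (0.23 ± 0.16, log2, SE) had adjusted p-values of 0.609 or more. Single embryos moved several of these log2 values by over 1.5 times. That of adam28 was 0.12 without coloboma embryo 5 and also 0.12 without normal embryo 6, and that of adam19a was -0.082 without normal embryo 4. It was -0.062 for adam8a without coloboma embryo 6, -0.25 for adam15 without normal embryo 7, and -0.17 for adam17b without normal embryo 6. The TPM scale set coloboma embryos lower in general, as given above. On it adam19a stood at 7.46, 8.09, 7.01 and 7.15 in normal embryos 3, 4, 6 and 7 and at 6.45, 6.27, 5.89, 6.46 and 6.78 in coloboma embryos 3 to 7. All 4 normal embryos lay above the 5 coloboma embryos there, while on the CPM scale, from 14.2 to 18.5 and from 13.9 to 15.7, the groups overlapped. Its adjusted p ran from 0.304 to 0.831 over the 23 alternative settings, those on TPM included (limma, edgeR and DESeq2). The muscle-linked adam12 was the scarcest of the 15 adam genes taken by the rule, at 0.931 ± 0.208 TPM (SD, n = 9). Its level was highest in coloboma embryo 5 (4.49 CPM) and lowest in coloboma embryo 6 (1.98 CPM), so that the coloboma group spanned all the normal embryos. All 13 muscle markers had log2 values above 0, 1 of them past the threshold, and their part in the adam12 level was not tested.

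The ADAMTS genes taken by the rule were expressed at lower levels: the 13 genes summed to 39.7 ± 3.66 TPM (SD, n = 9). The adam genes summed to 169 ± 12.4 and the mmp genes to 161 ± 8.57 TPM. These sums leave out the rows in capitals, which are 7 adamts, 2 adam and 5 mmp rows. Among those, ADAMTSL4 alone stood at 16.0 ± 2.31 TPM (SD, n = 9). The procollagen-processing enzyme gene adamts3 led the 13 genes with 6.86 ± 1.36 TPM (SD, n = 9). The proteoglycan-cutting group was adamts15a (5.61 ± 1.17), adamts1 (4.09 ± 0.487), and adamts9 (1.85 ± 0.276 TPM, SD, n = 9), with adamts15b from 0.85 to 2.27 and adamts8a from 0.68 to 1.52 TPM. Their log2 values lay between -0.13 and 0.27, with 2 above and 3 below 0. Among the coloboma embryos adamts15b varied most of this group (coefficient of variation 30.6%). It ran from 2.13 CPM in coloboma embryo 3 to 5.52 CPM in coloboma embryo 5, outside the normal range of 3.86 to 4.58 CPM on either side. Close to it was adamts8a (29.0%), from 1.28 CPM in coloboma embryo 5 to 2.97 CPM in coloboma embryo 3. Its normal range, 1.63 to 2.12 CPM, was also passed on either side.

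Mutations of ADAMTS18 cause an eye disease in humans, and adamts18 averaged 11.4 ± 0.524 CPM over the 4 normal and 12.3 ± 0.945 CPM over the 5 coloboma embryos (SD; log2 0.10 ± 0.089, SE; edgeR adjusted p = 0.703). Without coloboma embryo 3 the value was 0.064. The fibrillin-linked adamts6 and adamts10 were at 2.36 ± 0.213 and 3.47 ± 0.524 TPM (SD, n = 9). The smallest p among the 13 ADAMTS genes taken by the rule belonged to adamts22. It was at 4.02, 4.85, 5.58 and 5.82 CPM in normal embryos 3, 4, 6 and 7 and 5.74, 5.69, 7.00, 5.31 and 6.01 CPM in coloboma embryos 3 to 7 (log2 0.22 ± 0.14, SE; edgeR adjusted p = 0.574). Without normal embryo 3 its value was 0.13. The adamts-like genes adamtsl7 (5.72 ± 1.36 TPM, SD, n = 9) and adamtsl2 (0.607 ± 0.130 TPM, SD, n = 9) encode relatives without a protease domain. Scarcest was adamts13, for the enzyme that cuts von Willebrand factor, at 0.267 ± 0.102 TPM (SD, n = 9).

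The inhibitors timp2a and timp2b together summed to 16.1 ± 2.88 TPM (SD, n = 4) in normal and 15.5 ± 1.60 TPM (SD, n = 5) in coloboma embryos, beside 158 ± 12.2 and 164 ± 3.72 TPM for the mmp genes. These sums place timp2a and timp2b against the mmp genes and give no direction between the groups. They leave out the rows in capitals, among them the inhibitor TIMP4. Its level was 5.9 ± 0.73 TPM (SD, n = 4) in normal and 9.1 ± 3.2 TPM (SD, n = 5) in coloboma embryos. The TPM scale set coloboma embryos lower in general (median log2 -0.079 over all genes tested, TPM plus 0.1). TIMP2 both blocks MMPs and, with MMP14, helps to activate MMP2. For timp2a, the levels were 18.6, 21.3, 20.9 and 25.5 CPM in normal embryos 3, 4, 6 and 7 and 26.4, 21.1, 17.0, 21.1 and 21.6 CPM in coloboma embryos 3 to 7. The coloboma embryos held both the highest and the lowest value, and the log2 difference was -0.0088 ± 0.13 (SE; edgeR adjusted p = 0.988). For timp2b the difference was 0.12 ± 0.10 (log2, SE; edgeR adjusted p = 0.683), and came to 0.057 without normal embryo 3 and 0.19 without normal embryo 7.

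Paralogs named a and b were present in 11 pairs, and in 10 of them the same copy was the higher in all 9 embryos on the TPM scale. The widest gap was that of mmp11b over mmp11a, with a median ratio of 10.5 and a range from 7.14 to 17.8. Next came mmp13a over mmp13b (median 4.83, range 2.22 to 11.8), adam17a over adam17b (3.73, 2.89 to 4.30) and adam19b over adam19a (3.37, 2.57 to 4.13). The ratio was 2.27 for adam10a over adam10b (1.54 to 2.80) and 1.81 for timp2a over timp2b (1.41 to 2.01). Closest to parity were adam8a over adam8b (1.30, 1.04 to 1.47) and mmp14b over mmp14a (1.17, 0.984 to 1.39), the last turning in 1 embryo. The ratios of normal and coloboma embryos overlapped in each pair. They rest on the authors' division of reads between similar genes and on the gene lengths in their annotation. In counts over the 9 embryos adam19b and adam19a were nearly equal, at 6264 and 6185.

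**Figure D4:**
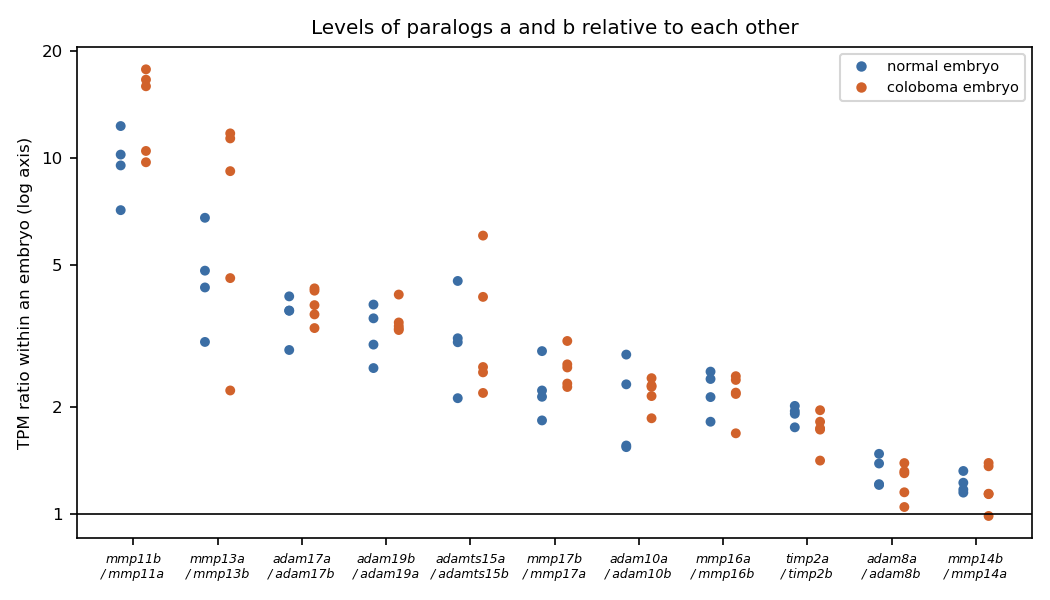
TPM of the higher over the lower paralog within each embryo (log axis) for the 11 pairs named a and b, with normal embryos in blue and coloboma embryos in orange and a line at equal levels. Ratios run from about 0.984 in one embryo for mmp14b over mmp14a to 17.8 for mmp11b over mmp11a.

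The highest and lowest levels were spread unevenly over the embryos. Coloboma embryo 5 had the lowest level of the 9 in 17 of the 46 genes (37.0%, against 20.8% of all genes tested) and the highest in 5 (10.9%, against 21.1%). Coloboma embryo 3 had the highest level in 11 genes (23.9%, against 15.4%) and the lowest in 2 (4.35%, against 17.0%). Normal embryo 4 had the highest level in 9 genes (19.6%, against 7.58%) and the lowest in 2 (4.35%, against 8.72%). Leaving out any of these 3 embryos left 0 genes past the threshold. The median coefficient of variation of a gene was 13.2% among normal and 12.0% among coloboma embryos.

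A gene linked to an altered zic2 copy can be inherited with it, so the protease genes were placed by symbol or synonym in the gene table of assembly GRCz12tu, by chromosome only. Of the 47 genes, 44 could be placed, on 20 chromosomes. None lay on chromosome 9, which carries zic2a and 4.01% of the placed genes tested. Chromosome 1, which carries zic2b, held adamts1 and adamtsl7. Normal embryos spanned 9.24 to 12.8 CPM for adamts1 and coloboma embryos 9.56 to 13.2 CPM. For adamtsl7 the ranges were 6.17 to 10.1 and 5.96 to 9.72 CPM. Both overlapped.

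The 15 rows named in capitals gave the same outcome: 13 were tested and 0 passed (edgeR adjusted p from 0.322 to 0.995), with 1 at an unadjusted p under 0.05 (7.69%, against 11.7% of all genes). Of the 13, 11 log2 values were above 0 and 2 below (84.6% above, against 50.1% of all genes). The row with the smallest p was TIMP4, for another inhibitor, at 2.23, 2.89, 2.49 and 2.23 CPM in normal embryos 3, 4, 6 and 7 and 4.42, 4.13, 6.36, 2.51 and 2.77 CPM in coloboma embryos 3, 4, 5, 6 and 7. Coloboma embryos 3, 4 and 5 lay above every normal embryo, and embryos 6 and 7 within the normal range. The log2 difference of TIMP4 was 0.69 ± 0.26 (SE; edgeR adjusted p = 0.322), and 0.48 without coloboma embryo 5. The highest mean of these rows was that of ADAMTSL4, an adamts-like gene mutated in human lens dislocation, at 16.0 ± 2.31 TPM (SD, n = 9). Close to it was MMP15 (1 of 2) at 15.5 ± 1.54 TPM (SD, n = 9), and their ranges over the embryos overlapped.

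Genes that work with these proteases showed no calls either. Among 15 tested activators and surface partners 0 passed, 5 log2 values were above 0 and the median was -0.038. The convertase pcsk5a (0.58 ± 0.21, log2, SE; edgeR adjusted p = 0.3004) and the membrane-bound MMP inhibitor RECK (0.38 ± 0.16; edgeR adjusted p = 0.385) had the smallest p. Of 7 genes of the plasminogen activator system 0 passed, all 7 were above 0 and the median was 0.16, with the protease plaub at 0.28 ± 0.23 (log2, SE). The list of other matrix and hatching proteases also held lox, loxl2a and loxl2b, which are lysyl oxidases and not proteases. Of the 17 genes of this list that were tested 0 passed (11 above 0, median 0.27). The cathepsin ctsl.1 was at 0.92 ± 0.24 and the procollagen protease tll1 at 0.27 ± 0.10 (log2, SE). Hatching gland markers (6 of 7 found, none at 0) summed to 4265 to 7393 CPM in normal and 6632 to 13229 CPM in coloboma embryos. The hatching genes he1a, he1b and he2 stand in both lists, so the lists are not independent. The part of the gland in the protease list was not tested. Of 25 proteoglycan substrates and partners 0 passed (12 above 0, median -0.042), with thbs3b at -0.44 ± 0.097 and ncanb at -0.61 ± 0.15 (log2, SE). Of 22 membrane substrates of ADAMs 0 passed (9 above 0, median -0.058). Among these the Notch ligands dla and dlb were at -0.44 ± 0.092 and -0.38 ± 0.093 (log2, SE). The substrates named had edgeR adjusted p-values of 0.106 or more. Of the partner genes named here, tll1 and dla lie on chromosome 1, which carries zic2b, and linkage was not tested.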

How the data were processed

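RNA of single embryos was sequenced from TruSeq libraries, per the labels' protocols. The submitters' processing notes list RSEM 1.2.18, Bowtie 1.1.1, CASAVA 1.8.2 and build Zv9, without an annotation. The authors' deposited estimated counts are whole numbers per symbol, and the deposited TPM values cover the same genes and served for levels between genes.

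Counts were rounded (no value changed), filtered by filterByExpr (minimum count 10) and TMM-scaled. Coloboma was tested against normal, without covariates, by the quasi-likelihood test of edgeR 4.0.16 (R 4.3.3). P-values were adjusted by Benjamini-Hochberg over 21293 genes, and SEs come from the log2 fold change and F value. Alternatives used DESeq2 1.42.0, limma 3.58.1, other scalings, filters and thresholds, TPM plus 0.1 or 1, and 1 embryo left out. The steps were tested on simulated data. The kit does not mark strand, so antisense reads are not separated. No batch is named, and no sequences were used here.

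The genes and lists were chosen with earlier results of these data known. The naming rule took all timp and tested mmp genes, a and b pairs, the 6 smallest p and 4 highest TPM per family, zic2a, zic2b, and the 2 smallest p per list. One gene that this rule names is not reported here. Rows in capitals, mmp20a and adam11, adam12, adam23a, adamts1, adamts6, adamts9, adamtsl2 and adam9 were named outside it, after their values were seen.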

Additional observations from a re-analysis of the deposited data

Results flagged for a closer look

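In 10 of 94 group-by-gene sets one embryo lay far from the others of its group by Dixon's criterion, which chance meets in about 1 of 20 sets. The share of such sets over all genes was not counted, so the 10 are not read as a trait of these genes. Over all genes tested, coloboma embryo 5 was the highest in 21.1% and the lowest in 20.8%. Coloboma embryo 5 was apart in 3 genes: highest for adam22 (36.6 CPM, others 27.6 to 30.1) and adam28 (10.6, others 7.04 to 8.07), and lowest for mmp17b (10.9, others 14.7 to 16.2). Coloboma embryo 3 was the highest of its group for timp2b (12.7 CPM, others 11.2 to 11.5), adam10b (28.9, others 21.0 to 22.9) and mmp13b (1.86, others 0.542 to 0.798). Coloboma embryo 4 was highest for adamts6 (5.80 CPM, others 5.13 to 5.18). Among normal embryos, embryo 3 was highest for adamts8a (2.12 CPM, others 1.63 to 1.70) and lowest for adam8b (10.7, others 13.6 to 14.2), and embryo 7 was lowest for mmp11a (0.981, others 1.54 to 1.65).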

How the results depend on the processing

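No gene of the 47 passed under any of 23 alternative settings or at an adjusted p of 0.01 or 0.10, nor with the rows in capitals included. Over all genes the counts, 17 higher and 27 lower, moved. They were 365 higher and 212 lower with DESeq2, 44 and 56 with voom and sample weights, 12 and 33 with library size alone, 10 and 24 with TPM plus 0.1, and 10 and 23 with that on all rows. At thresholds of 0.01 and 0.10 they were 8 and 41 higher, 11 and 45 lower. Leaving out 1 embryo gave 8 to 165 higher and 11 to 70 lower, the most without coloboma embryo 5. Higher and lower counts were 9 and 12 without normal embryo 3, 29 and 22 without normal embryo 4, 8 and 17 without normal embryo 6, 9 and 18 without normal embryo 7, and 10 and 11 without coloboma embryo 4. With the embryo number as a replicate block (8 embryos), 10 were higher and 8 lower, and without that block in the same 8 embryos 165 and 70, which is the same fit as leaving out coloboma embryo 5. Same-numbered embryos did not deviate together (correlations from -0.12 to 0.095), so the numbers were not taken as pairs. The 21 single log2 values followed were those of TIMP4 and of the genes with the smallest p per family, a choice that favours stable signs. Of the 21, 20 kept their sign in all fits. The value of timp2a turned from -0.0088 to 0.022 with voom and sample weights, 0.064 with the replicate block and 0.062 without it. It ranged from -0.092 to 0.086 with 1 embryo left out. Signs turned among the other genes too. That of adam10b went from -0.074 to 0.014 without normal embryo 6, and that of adamts15a from -0.13 to 0.0024 without normal embryo 4. The cause was not tested. Depth limits genes such as mmp20a and adamts13, with 71 and 322 counts in all.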

Other observations

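The row MMP25 (2 of 2), a membrane-type MMP named in capitals and chosen after its values were seen, was too scarce for the main test. It had 8, 10, 14 and 11 counts in normal embryos 3, 4, 6 and 7, and 0, 3, 3, 2 and 5 counts in coloboma embryos 3, 4, 5, 6 and 7. On the CPM scale the groups did not overlap, with 0.184 to 0.243 in normal and 0 to 0.148 in coloboma embryos. Such separation was found in 4.43% of all genes tested, and its share among rows too scarce for the test was not counted. The count of 0 in coloboma embryo 3 allows up to 0.101 CPM by counting error alone. With no filter its log2 value was -1.82 (edgeR unadjusted p = 0.0103, adjusted p = 0.268), and the adjusted p-values of the 3 fits that gave one ran from 0.268 to 0.434.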
